A study of Homo sapiens with 4 samples.

Results

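Kinesins and centromere proteins were described in OCI-AML3, a long-established human acute myeloid leukaemia (AML) line, 3 days (72 h) after transfection with sgNPM1A or with the control guide sgNeg. Members were matched by symbol, in a family chosen with earlier results of these data known. Of the 58037 rows of the count table, 19582 were protein-coding. Among those, 60 rows carried a KIF number or a CENP letter as their symbol, 39 of them kinesins and 21 of them CENP genes. All cells of both groups carry the line's heterozygous NPM1 mutation at the outset, besides its DNMT3A and NRAS mutations, and sgNPM1A is a CRISPR guide directed at the mutant allele (mtNPM1). There were 2 libraries per group, called biological replicates by the study. Whether they came from separate cultures is not given in the labels, so the tests measure the spread between these libraries. The labels give no share of edited cells. RNA came from whole cultures, and fewer cells of a type cannot be told apart from less RNA per cell.

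Kinesins are motors that walk along microtubules or take them apart. Some of them work on the spindle in mitosis, and others carry vesicles, mitochondria and other cargo between divisions. The CENP proteins mark the centromere, build the inner kinetochore on it and, with CENPE and CENPF, reach the outer layer that binds spindle microtubules. Many of the mitotic genes are transcribed mainly late in the cell cycle, through a promoter element called CHR that is bound by the MuvB complex. Proliferating leukaemia cells express most of them.

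Total counts per library lay between 25069484 and 28276391, and the 60 genes took between 0.263% and 0.298% of them. A count of 3, taken as the floor, corresponded to 0.108 to 0.118 CPM, the unit used here for TMM-normalized counts relative to library size. Such a floor allows for counting error alone. NPM1 itself was at 1319 and 1385 CPM with sgNeg and at 1189 and 1132 CPM with sgNPM1A, a log2 change of -0.22 (SE 0.07, edgeR quasi-likelihood adjusted p = 0.036) that did not reach the size of 0.32 asked of a call. Gene counts do not separate the mutant from the wild-type allele, so this is a weak check of the labels. The 6 myeloid line markers were present in every library. MPO, CSF3R, ANPEP and SPI1 were called higher with sgNPM1A (log2 changes 1.77, 1.40, 0.49 and 0.48), and PTPRC and CD33 were not called. The summed level of 5 myeloid differentiation markers was 244 and 294 CPM with sgNeg and 2676 and 3406 CPM with sgNPM1A, nearly all of it LYZ. Of these markers ITGAM was called higher too (log2 change 2.33), and CD14 was not called (0.34). Of the 4 T cell markers 3 had no count in any library, the 4 B cell markers summed to 1.36 to 2.20 CPM, the 4 erythroid markers to 0.108 to 0.193 CPM and the 4 epithelial markers to 0.720 to 1.78 CPM. The 4 fibroblast markers summed to 28.1 and 29.4 CPM with sgNeg and 13.3 and 9.62 CPM with sgNPM1A, mostly COL1A2, with COL3A1 at 0 throughout. Their part in the results below was not tested.

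Most promoters of the mitotic kinesins held a word known from late cell cycle genes. RefSeq windows of GRCh38.p14, from 250 bases before to 50 bases after an annotated start of each gene, were matched for 50 of the 60 genes. That start is not always the outermost: the windows of KIF7 and KIF24 lay inside the gene's own span. The CHR word TTTGAA, searched on both strands, stood in 9 of the 14 mitotic kinesin promoters (64.3%). The 9 include KIF4B, which shares transcript sequence with KIF4A and had too few counts to be tested. Of the 12 tested mitotic kinesins 8 had the word (66.7%). Among transport kinesins the word stood in 1 of 12 promoters, that of KIF5B. It stood in 5 of 17 CENP promoters, those of CENPA, CENPC, CENPN, CENPO and CENPF, and in none of the 7 promoters of other kinesins. Over all 27305 promoters of the table the share was 15.4%, over those of protein-coding genes 12.1% and over those of tested genes 9.86%. The CCAAT box, searched as CCAAT on both strands, was found in 10 of 14 mitotic and 3 of 12 transport kinesin promoters, against 35.7% of all promoters. A match is a description of letters, not a binding site.

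Stretches around the word are shown for 6 mitotic kinesins and for KIF5B, to show the word that most mitotic kinesin promoters held and its single transport instance. They run 5′ to 3′ on the gene's strand, with TTTGAA, or its reverse complement TTCAAA, in capitals and 12 bases on each side.
KIF4A (chrX:70290058-70290087, plus strand): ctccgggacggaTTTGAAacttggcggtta
KIF11 (chr10:92593090-92593119, plus strand): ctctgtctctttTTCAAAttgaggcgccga
KIF14 (chr1:200620733-200620762, minus strand): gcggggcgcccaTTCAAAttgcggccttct
KIF18A (chr11:28108149-28108178, minus strand): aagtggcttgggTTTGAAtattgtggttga
KIF18B (chr17:44947754-44947783, minus strand): ccgcccggctaaTTTGAAcgcaaggcgccg
KIF23 (chr15:69414282-69414311, plus strand): ctgattggcccgTTTGAAatgcgccaggcg
KIF5B (chr10:32056548-32056577, minus strand): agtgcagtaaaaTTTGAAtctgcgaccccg
In the mitotic kinesins shown the word began between 55 bases before and 3 bases after the annotated start, and in KIF5B 140 bases before it. KIF20B held it a second time, both copies after its start.

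**Figure D1:**
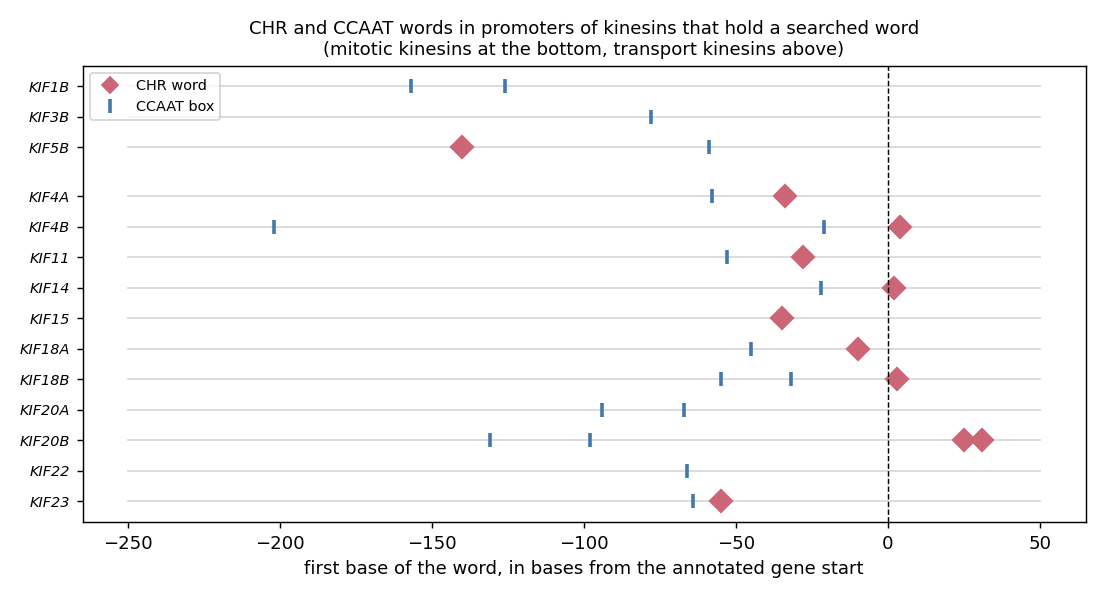
Position of the CHR word (diamonds) and the CCAAT box (ticks) in mitotic and transport kinesin promoters that hold a searched word, in bases from the annotated gene start. The CHR word sits within 55 bases of the start in the 9 mitotic promoters that have it, and at -140 in KIF5B, the only transport promoter with it.

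Of the 60 genes 51 had enough counts for edgeR's expression filter and were tested. KIF2B and KIF26A had no count in any library, KIF4B, KIF1A, KIF17, KIF12 and KIF19 had 3 counts or fewer in each, KIF5A had 2 to 6 and KIF6 had 0 to 7. All 21 CENP genes were tested. Calls required an adjusted p (edgeR's quasi-likelihood test, Benjamini-Hochberg) below 0.05 and a log2 fold change of at least 0.32 in size. With sgNPM1A 3 members were called lower (KIF25, KIF7 and CENPE), where 10.3% of all 15718 tested genes were, and 3 were called higher (KIF13A, KIF16B and KIF21A), where 10.5% of all tested genes were. Together the 6 calls are 11.8% of the tested members, below the 20.8% of all tested genes. The conditions did not overlap in 34 of the 51 (66.7%), against 63.1% of all tested genes. None of the 12 tested mitotic kinesins was called. That class holds genes with a KIF number, so CENPE, a mitotic motor called lower, is counted with the CENP genes. KIFC1, not called, is counted with the partners. The median log2 changes of the mitotic kinesins, transport kinesins and CENP genes lay within 0.1 of 0.

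**Figure D2:**
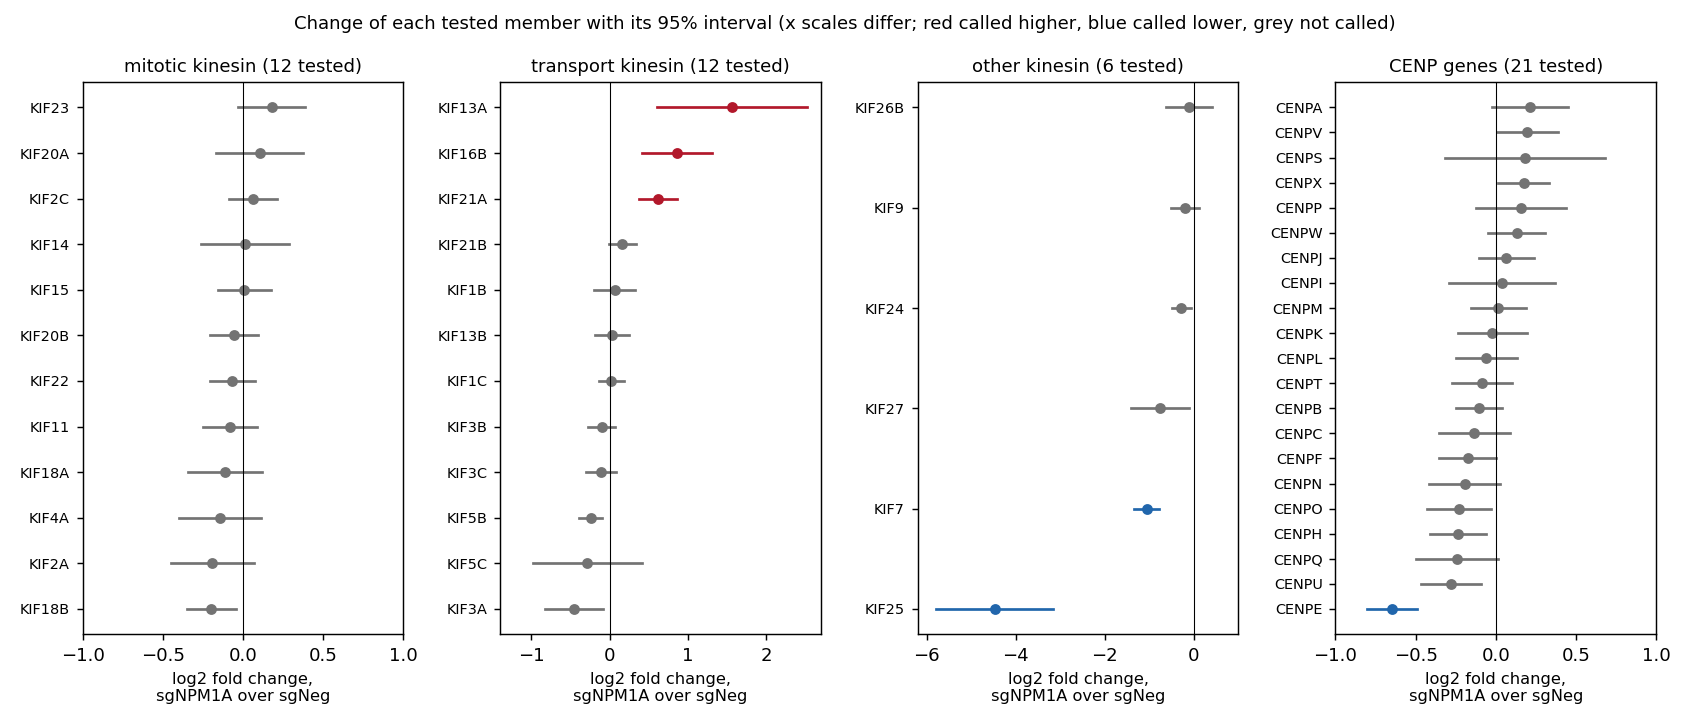
Log2 fold change of each tested member, sgNPM1A over sgNeg, with its 95% interval, in 4 classes whose x scales differ. KIF25, KIF7 and CENPE are called lower and KIF13A, KIF16B and KIF21A higher, while the 12 mitotic kinesins lie between -0.20 and 0.18.

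Among the genes of the kinetochore CENPE was the only CENP gene called. CENPE, on chromosome 4 (bases 103105811 to 103198343 of GRCh38), encodes a plus-end directed kinesin that holds chromosomes on spindle microtubules until they align, and it is a kinesin by its motor although not by its name. It was at 121 and 127 CPM in the sgNeg libraries and at 82.3 and 76.6 CPM in the sgNPM1A libraries. Both sgNPM1A libraries were below both sgNeg libraries, and the gap between groups was several times the gap within either. The log2 change was -0.65 (SE 0.07, 95% interval -0.80 to -0.49, adjusted p = 6.0e-05), a 1.56-fold lower level. No 50-base word of its transcripts occurred in another gene, and it was called in each of 12 alternative fits at these thresholds, though not when a fold of at least 2 was asked. CENPF, the other outer protein, was at 349 and 296 CPM with sgNeg and 281 and 289 CPM with sgNPM1A, with a log2 change of -0.18 (SE 0.08, adjusted p = 0.14) that did not pass.

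The promoter of CENPE, the CENP gene that was called, is shown over the 250 bases before its start. Beside it are those of KIF25 and KIF21A, the largest fall among members and their rise with the smallest adjusted p. None of the 6 called members had the CHR word or a CCAAT box in its window. The window of KIF7 (chr15:89655468-89655717) lay inside its gene, so the outermost start of KIF7 was not searched. The capitals in KIF25 mark the reverse complement of TTTCCCGC, which with TTTGGCGC was searched on both strands as an E2F word and stood in 2.31% of all promoters. No searched word is in the other 2 stretches.
CENPE (chr4:103198344-103198593, minus strand): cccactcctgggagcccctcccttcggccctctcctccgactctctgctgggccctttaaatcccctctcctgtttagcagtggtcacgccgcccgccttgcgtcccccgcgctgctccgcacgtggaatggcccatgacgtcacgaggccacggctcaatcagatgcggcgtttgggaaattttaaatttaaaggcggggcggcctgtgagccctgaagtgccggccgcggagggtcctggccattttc
KIF25 (chr6:167997421-167997670, plus strand): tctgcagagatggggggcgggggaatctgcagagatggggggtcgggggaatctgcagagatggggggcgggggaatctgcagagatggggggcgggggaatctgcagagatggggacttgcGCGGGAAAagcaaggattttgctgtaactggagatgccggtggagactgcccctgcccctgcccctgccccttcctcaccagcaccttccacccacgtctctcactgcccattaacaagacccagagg
KIF21A (chr12:39443121-39443370, minus strand): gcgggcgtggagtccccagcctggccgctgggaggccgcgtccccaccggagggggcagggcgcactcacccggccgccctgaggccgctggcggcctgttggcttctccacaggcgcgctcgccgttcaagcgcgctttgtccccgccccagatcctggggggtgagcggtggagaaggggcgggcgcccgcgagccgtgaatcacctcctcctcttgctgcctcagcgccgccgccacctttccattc

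No other CENP gene was called. CENPA, the histone H3 variant that marks the centromere, was at 30.1 and 24.1 CPM with sgNeg and 30.8 and 32.0 CPM with sgNPM1A (log2 change 0.21, SE 0.11, adjusted p = 0.17). CENPB, which binds a repeat of centromeric DNA, was at 368 and 353 CPM against 333 and 338 CPM (log2 change -0.10, SE 0.06, adjusted p = 0.27). CENPC, which links CENPA chromatin to the kinetochore, was at 21.7 and 19.5 CPM against 18.2 and 19.3 CPM (log2 change -0.13, SE 0.10, adjusted p = 0.36).

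In the inner kinetochore 15 genes were tested, with log2 changes from -0.28 to 0.18, and none was called. CENPT, which joins the inner kinetochore to the microtubule-binding NDC80 complex, was at 79.4 and 87.0 CPM with sgNeg and 83.6 and 73.0 CPM with sgNPM1A, so the groups overlapped. CENPX, a small histone-fold partner of CENPS, was at 62.8 and 67.0 CPM against 73.6 and 73.0 CPM (log2 change 0.17, adjusted p = 0.10). CENPU passed on the adjusted p (0.031) but not on the fold, with 59.7 and 61.0 CPM against 53.2 and 46.2 CPM and a log2 change of -0.28 (SE 0.09). Without the first sgNPM1A library it passed both (-0.38, adjusted p = 0.038). The counts of CENPS cannot be told apart from those of a readthrough gene, CENPS-CORT, with which 60.7% of its 50-base words are shared. CENPJ, a centriole protein, and CENPV, both outside the kinetochore core, had log2 changes of 0.07 and 0.20 and were not called. Over the 21 CENP genes the median log2 change was -0.059, beside 0.0002 over all tested genes, with 1 called of 21 (4.76%, against 20.8% of all tested genes).

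The mitotic kinesins differed between the libraries of the control group as much as between the conditions. KIF20A, which is needed for cytokinesis, was at 66.4 and 48.3 CPM in the sgNeg libraries and 59.5 and 63.8 CPM in the sgNPM1A libraries. Both sgNPM1A values lay between those of the controls. KIF4A, a chromosome-bound motor of the anaphase midzone, was at 41.7 and 32.5 CPM against 31.7 and 35.6 CPM, and the groups overlapped. KIF23, the centralspindlin motor, was at 54.3 and 46.4 CPM against 53.8 and 60.2 CPM, with overlap too.

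The other mitotic kinesins looked at singly were close to level. KIF11, the motor that pushes spindle poles apart, was at 102 and 91.9 CPM against 88.5 and 94.9 CPM (log2 change -0.08, SE 0.08, adjusted p = 0.50). KIF2C, which takes microtubule ends apart at the centromere, was at 92.5 and 90.7 CPM against 94.2 and 96.9 CPM (log2 change 0.06, SE 0.07, adjusted p = 0.56). KIF18A, which damps chromosome movement, was at 19.0 and 16.7 CPM against 16.2 and 16.8 CPM (log2 change -0.11, SE 0.11, adjusted p = 0.49). The most abundant by CPM were KIF22, a chromosome-bound motor, at 160 and 167 CPM against 158 and 155 CPM (log2 change -0.07, adjusted p = 0.50), and KIF18B, a motor that shortens astral microtubules, at 114 and 107 CPM against 96.7 and 95.7 CPM. KIF18B came nearest to the threshold in its class, with a log2 change of -0.20 (SE 0.07, adjusted p = 0.057).

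Across the 12 tested mitotic kinesins the log2 change ran from -0.20 to 0.18 with a median of -0.060, 5 above 0 and 7 below. Every 95% interval lay inside a 1.5-fold change in either direction, the farthest bounds being 0.39 for KIF23 and -0.45 for KIF2A. The first sgNeg library was above the second in 11 of the 12, against 49.8% of all tested genes. In 9 of the 12 the gap between the sgNeg libraries exceeded the change between conditions, against 38.8% of all tested genes. The same order of the sgNeg libraries was seen in 6 of 6 spindle checkpoint genes, in 6 of 6 spindle and midzone partners, and in 8 of 9 G2/M cyclins and kinases. It was not confined to mitotic genes, being seen in 9 of 12 tested transport kinesins. It was seen too in 4 of 4 genes of the chromosomal passenger complex, 7 of 9 G2/M gene regulators and 6 of 10 cytoplasmic dynein genes. It was seen in 4 of 10 KMN network genes, 2 of 4 genes of CENP-A deposition, 4 of 7 Ska and corona genes and 10 of 21 CENP genes. Of tested transport partners it was seen in 3 of 10, and of tested other kinesins in 0 of 6. What made these libraries differ was not tested. Without the first sgNeg library the median of the mitotic kinesins was 0.025, and KIF20A and CENPA were called higher (log2 changes 0.35 and 0.38). Without the second sgNeg library that median was -0.13, KIF20A had a log2 change of -0.11, and KIF2A was called lower.

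**Figure D3:**
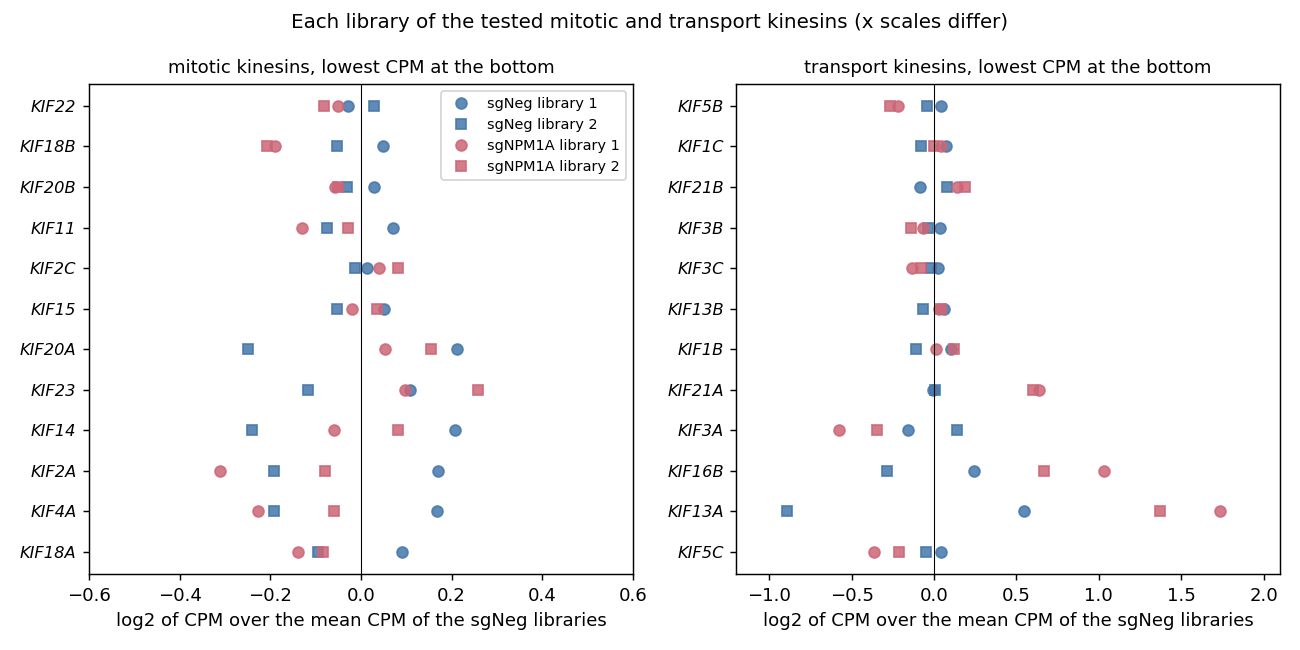
Each library's CPM over the mean of the sgNeg libraries, on a log2 axis, for the tested mitotic (left) and transport (right) kinesins, with scales that differ. In KIF20A and KIF14 both sgNPM1A libraries (red) lie between the sgNeg libraries (blue), while in KIF21A, KIF16B and KIF13A they lie to the right of both.

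Transport kinesins held all 3 of the members called higher. KIF21A, on chromosome 12 (bases 39293228 to 39443120 of GRCh38), is a motor that limits microtubule growth at the cell cortex. It was at 9.17 and 9.23 CPM in the sgNeg libraries and at 14.3 and 13.9 CPM in the sgNPM1A libraries. The libraries of each group nearly coincided, and the log2 change was 0.62 (SE 0.11, 95% interval 0.37 to 0.87, adjusted p = 0.0019). KIF21A was called in each of 12 alternative fits at these thresholds, and not when a fold of at least 2 was asked.

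KIF16B, an endosomal motor, and KIF13A, which carries recycling endosome and melanosome cargo, had lower counts. KIF16B was at 4.29 and 2.97 CPM with sgNeg and 7.43 and 5.76 CPM with sgNPM1A, without overlap (log2 change 0.86, SE 0.20, adjusted p = 0.0087). KIF13A had 16 and 6 counts against 40 and 31 (log2 change 1.56, SE 0.43, 95% interval 0.61 to 2.52, adjusted p = 0.016), and DESeq2 did not call it (adjusted p = 0.097). Without the second sgNeg library neither passed: KIF16B had a log2 change of 0.62 (adjusted p = 0.066) and KIF13A one of 1.02 (adjusted p = 0.100), which left KIF21A the only member called higher. Without the first sgNPM1A library KIF13A did not pass either (1.37, adjusted p = 0.059).

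The most abundant transport kinesin did not rise. KIF5B, the ubiquitous conventional kinesin heavy chain, was at 234 and 220 CPM with sgNeg and 195 and 189 CPM with sgNPM1A. The groups did not overlap and the adjusted p was 0.019, but the log2 change of -0.24 (SE 0.07) stayed under the fold asked. KIF1C, a motor of dense-core vesicles and podosomes, was at 110 and 98.6 CPM against 107 and 104 CPM (log2 change 0.02, adjusted p = 0.85). KIF1B, a carrier of synaptic vesicle precursors and mitochondria, was at 12.9 and 11.1 CPM against 12.1 and 13.04 CPM (log2 change 0.07, adjusted p = 0.74). KIF3A, a subunit of the kinesin-2 motor of cilia, was at 5.47 and 6.72 CPM against 4.09 and 4.79 CPM, with a log2 change of -0.46 (SE 0.17, adjusted p = 0.066). Without the first sgNeg library KIF3A was called lower (-0.60, adjusted p = 0.039), as it was with library size as the only scaling (-0.50, adjusted p = 0.047).

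Set beside each other, the 12 tested transport kinesins had 3 calls and changes from -0.46 to 1.56. The 12 tested mitotic kinesins had none, where 20.8% of all tested genes were called. CENPE, a mitotic motor that was called lower, is outside these 12 because of its name. The KIFC kinesins have no KIF number, so they are in neither class and are described with the partners. KIFC3, listed with transport, was called lower (log2 change -1.29). KIFC1, of the spindle partners, and KIFC2, of the transport partners, were not called (-0.06 and -0.03). Counting members at an adjusted p under 0.05 whatever the fold gives 4 transport and 0 mitotic kinesins, against 26.0% of all tested genes. The median log2 change was 0.029 for transport and -0.060 for mitotic kinesins, a difference of -0.089. By library, the mitotic minus the transport median of log2 CPM, each gene taken against its sgNeg mean, was 0.040 and -0.040 in the sgNeg libraries and -0.075 and -0.059 in the sgNPM1A libraries. The difference between the sgNeg libraries was about as large as that between conditions. Leaving out KIF21A and KIF21B brought the transport median to -0.040 and the difference of medians to -0.020. KIF21A, which limits microtubule growth, is also among the 3 transport calls. With 2 libraries per group an exact permutation test of such a value cannot reach 0.05, so none was made.

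The largest change in the whole set was in KIF25, a minus-end directed motor of the kinesin-14 group, on chromosome 6 (bases 167997671 to 168045091). It had 56 and 72 counts in the sgNeg libraries and 4 and 2 in the sgNPM1A libraries, or 2.20 and 2.78 CPM against 0.144 and 0.0720 CPM. The sgNPM1A libraries lay near the floor of 3 counts. The depth-scaled ratio of the summed counts, 128 against 6, was 23.1-fold with an exact 95% interval of 10.3 to 64.2, which covers counting error only. edgeR's fitted log2 change was -4.47 (SE 0.60, adjusted p = 1.3e-05).

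Neighbours of KIF25 were looked at after its values had been seen. KIF25-AS1, an antisense RNA gene, has a RefSeq span (bases 167994187 to 167997077) that does not reach that of KIF25. It had 67 and 83 counts with sgNeg and 7 and 4 with sgNPM1A, a ratio of 14.8 (exact 95% interval 8.03 to 30.3). Of the 50-base words of KIF25's GENCODE transcripts 1.84% occur in KIF25-AS1 on the opposite strand. The strand setting of the counting is not given in the sources used here. AFDN, the next protein-coding gene looked at, was level at 28.9 and 28.4 CPM against 28.5 and 27.8 CPM (log2 change -0.03, adjusted p = 0.86). AFDN-DT, on the side of AFDN away from KIF25 (bases 167823890 to 167826796), had 1 count in each sgNeg library and 13 and 16 with sgNPM1A. It was called higher (log2 change 3.59, SE 1.00, adjusted p = 0.0028), but DESeq2 gave it no adjusted p.

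KIF7, a kinesin-4 protein at the tip of the primary cilium that regulates Hedgehog signalling, was the other member with a KIF number called lower. It lies on chromosome 15 (bases 89617309 to 89663049) and was at 11.9 and 11.97 CPM with sgNeg and at 5.53 and 5.87 CPM with sgNPM1A. The log2 change was -1.06 (SE 0.13, 95% interval -1.34 to -0.79, adjusted p = 9.3e-05), a 2.09-fold lower level. TICRR, which overlaps it on the other strand and shares 6.69% of its words, had a log2 change of -0.13 (adjusted p = 0.29). KIF24, a centriolar kinesin that depolymerizes microtubules and the most abundant of its class by CPM, was at 21.2 and 21.6 CPM against 17.0 and 18.2 CPM (log2 change -0.28, adjusted p = 0.049), under the fold asked.

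All 6 tested members of the class of other kinesins had a log2 change below 0, with a median of -0.52, and the groups overlapped in none of the 6, where 63.1% of all tested genes did not overlap. Calls were made for 2 of the 6, against 20.8% of all tested genes. KIF9, KIF26B and KIF27 had log2 changes of -0.21, -0.12 and -0.76 and adjusted p of 0.32, 0.76 and 0.080. KIF27 shares 19.2% of its words with other genes, and it was called lower without the first sgNeg library and without a filter on low counts.

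**Figure D4:**
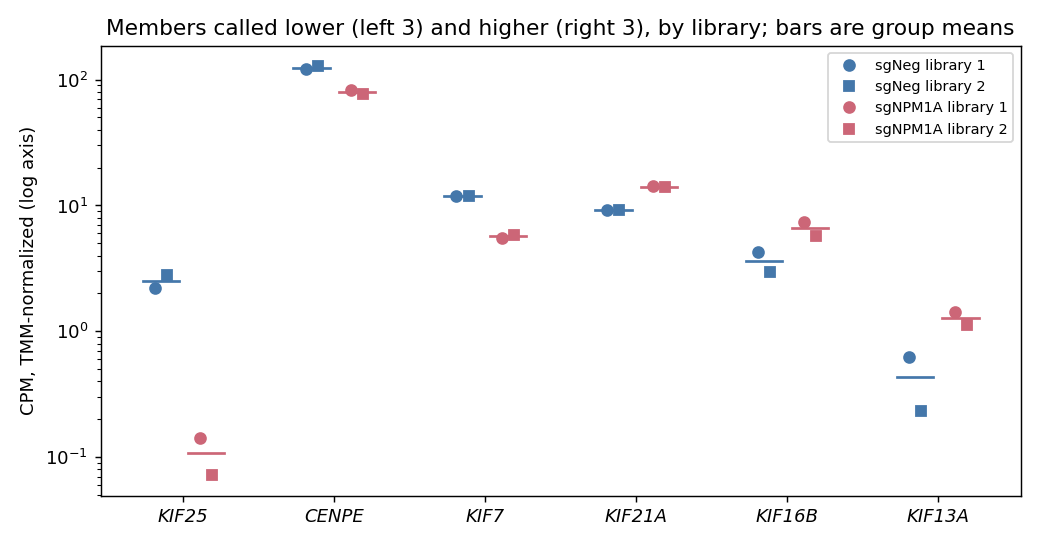
TMM-normalized CPM of the 6 called members in each library, on a log axis, with bars at the group means. The sgNeg and sgNPM1A libraries do not overlap in any of the 6, and the sgNeg libraries of KIF13A are the farthest apart.

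Levels of different genes were compared per kilobase of exon (CPM per kb, sgNeg mean). Among members CENPB was highest at 124.8, and KIF5B was the highest with a KIF number at 38.7. KIF2C, KIF18B and KIF22 followed at 25.1, 23.4 and 22.8 CPM per kb, an order that changed when the longest transcript was taken as the length (31.0, 26.2 and 34.97). CENPE stood at 12.5 CPM per kb with sgNeg and KIF21A at 0.909, so the calls span genes of very different abundance. KIF13A, at 0.0387, was among the scarcest members tested.

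Partners of these proteins were described from 10 fixed lists, holding 76 genes, of which 75 were tested. With sgNPM1A 8 were called lower and 1 higher, 9 of 75, against 20.8% of all tested genes in either direction. In the KMN network, which binds microtubules at the kinetochore, all 10 genes had log2 changes below 0 with a median of -0.043, and KNL1, its checkpoint scaffold, was called lower (50.2 and 42.4 CPM against 36.0 and 35.7 CPM, log2 change -0.37, adjusted p = 0.014). The Ska complex, which tracks depolymerizing microtubule ends, had SKA2 called lower at 110 and 110 CPM against 79.7 and 81.3 CPM (log2 change -0.45, adjusted p = 5.1e-04). SKA1 was called lower as well (-0.35, adjusted p = 0.0096). KNL1 lost its call without the first sgNeg library (-0.24, adjusted p = 0.061) or without either sgNPM1A library (adjusted p = 0.055 and 0.072). SKA1 lost it without the second sgNeg library (-0.319, adjusted p = 0.031) or either sgNPM1A library (adjusted p = 0.051 and 0.13). No gene of CENP-A deposition, the chromosomal passenger complex, the spindle checkpoint or the spindle and midzone partners was called.

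Partners of transport had the largest falls. KIFC3, a minus-end directed kinesin, was at 69.9 and 76.8 CPM with sgNeg and 33.3 and 26.8 CPM with sgNPM1A (log2 change -1.29, SE 0.10, adjusted p = 5.7e-06). KLC2, a kinesin light chain, and MAPK8IP1, an adaptor of kinesin-1, had log2 changes of -0.45 and -1.06 (adjusted p = 0.0042 and 0.0040). Of 10 cytoplasmic dynein genes 9 had a log2 change below 0, with a median of -0.23, and 1 was called, DYNLT3 (-0.39, adjusted p = 0.030). Without the second sgNPM1A library KLC2 was not called (-0.40, adjusted p = 0.062). DYNLT3 was not called without the first sgNeg library (adjusted p = 0.099), without either sgNPM1A library (0.14 and 0.16) or by DESeq2 (0.15).

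The G2/M cyclins and kinases had a median log2 change of 0.033, with AURKA, a spindle pole kinase, called higher at 79.9 and 69.6 CPM against 92.2 and 95.6 CPM (log2 change 0.33, adjusted p = 0.012). Its call was lost without the second sgNeg library (0.23, adjusted p = 0.042), without the second sgNPM1A library (0.30, adjusted p = 0.099) and with library size as the only scaling (0.29). In the regulators of G2/M genes LIN54, the MuvB subunit that contacts the CHR word, was called lower. It was at 36.4 and 27.3 CPM with sgNeg and 18.9 and 21.5 CPM with sgNPM1A (log2 change -0.66, SE 0.13, adjusted p = 0.0035). The other 8 genes of that list were not called. The 8 tested mitotic kinesins with the CHR word in their promoter are among the 12 of which none was called. Whether the level of LIN54 bears on these genes was not tested.

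**Figure D5:**
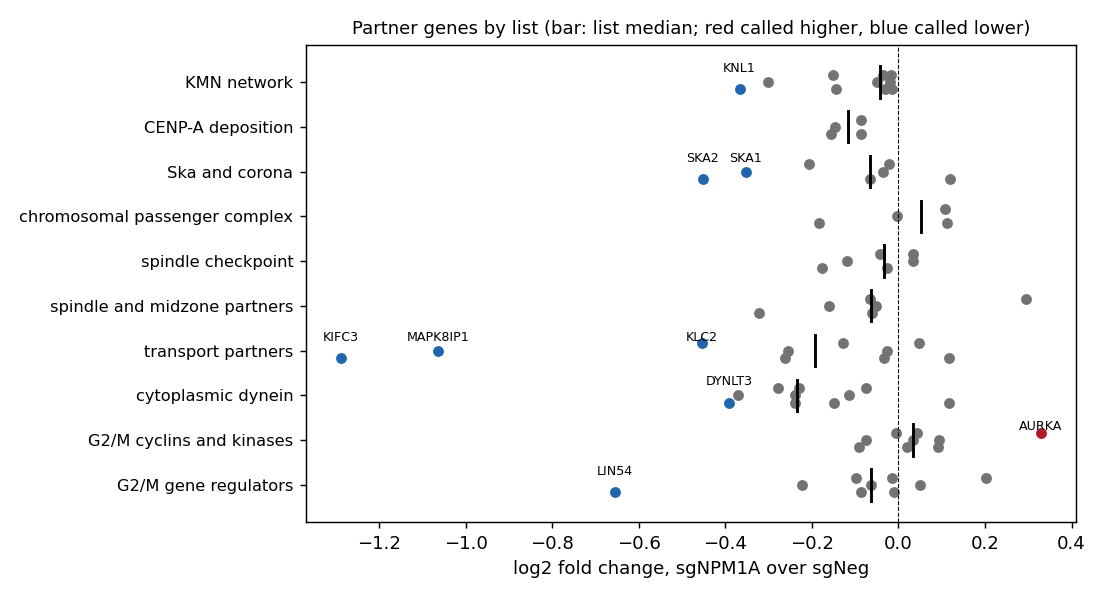
Log2 fold change of each tested partner gene, sgNPM1A over sgNeg, by list, with a bar at each list's median and the called genes named. KIFC3, MAPK8IP1 and LIN54 lie farthest to the left, and AURKA is the only gene called higher.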

How the data were processed

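Total RNA of OCI-AML3 cells was sequenced. The authors aligned the reads to hg38 (STAR, Samtools). The values they deposited are unnormalized read counts, 1 row for each of 58037 Ensembl genes; the counting program, strand setting and annotation release are not given in the sources used here. No row carries an ERCC spike-in name (0 rows), so levels are relative to each library. Symbols were found for 55646 rows.

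The 4 libraries were grouped by label and compared with edgeR 4.0.16 in R 4.3.3: filterByExpr (minimum count 10), TMM, robust quasi-likelihood F test, two-sided, Benjamini-Hochberg adjustment over 15718 genes, with calls below an adjusted p of 0.05 at a log2 fold change of 0.32 or more in size. Log2 CPM of single libraries used a prior count of 2. The step was tested on simulated data. Total counts ran from 25069484 to 28276391; intervals of counts cover counting error only. Alternatives were RLE, library size only, DESeq2 1.42.0, limma-trend (limma 3.58.1), other filters and folds, a replicate block and leaving out each library. Same-numbered libraries deviated with a correlation of -0.13 over all tested genes and -0.52 over the 8856 with a mean above 10 CPM, so the numbers were not taken as pairs.

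Members and lists were chosen with earlier results of these data known. Named were all called members, the 2 most abundant of each class, a fixed list of 14 genes, and called partners; KIF24, CENPU and other genes outside this rule were chosen after their values were seen. Transcript lengths and 50-base words came from GENCODE v44, positions and promoters from RefSeq GRCh38.p14.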

Additional observations from a re-analysis of the deposited data

How the results depend on the processing

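Counts of called members kept within 1.5 times of the reported 3 lower and 3 higher in most alternatives. At the reported thresholds the calls of CENPE, KIF7 and KIF21A held in all 12 alternative fits, and that of KIF25 in the 11 that tested it. With library size only 5 were called lower, and that scaling shifted the median of all genes to -0.04. Without a filter on low counts 5 were called lower, and with no fold threshold 6. A fold of at least 2 left KIF25 and KIF7 called lower and 1 member, KIF13A, called higher, so CENPE and KIF21A lost their calls there. Leaving out single libraries gave 3 to 5 called lower and 1 to 5 called higher.

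The medians moved with single libraries. Leaving them out in turn gave -0.13 to 0.025 for mitotic kinesins, -0.044 to 0.090 for transport kinesins, -0.091 to -0.042 for CENP genes and -0.084 to -0.060 for mitotic minus transport. The transport median was -0.040 without KIF21A and KIF21B, and the CENP median -0.10 with library size only. Among named genes that were not called, signs turned for KIF1C with library size only (-0.018) and with single libraries left out, where KIF4A ran from -0.31 to 0.049, KIF20A from -0.11 to 0.35, KIF1B from -0.038 to 0.18, KIF1C from -0.050 to 0.099 and CENPT from -0.19 to 0.011. The causes were not tested.

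With the replicate number as a block, 3 members were called lower and 3 higher; among named genes DYNLT3 lost its call (adjusted p = 0.062). The crossed pairing, added after the data were examined, gave 5 lower and 3 higher. A single library left in a group was assumed to vary like the other group. KIF13A lies at low counts, where depth limits the precision.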

Other observations

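The CHR word and the CCAAT box had a shared arrangement in mitotic kinesin promoters, noticed after the positions had been seen. A CHR word that began 20 to 40 bases after the first base of a CCAAT box stood in 6 of 14 mitotic kinesin promoters (KIF4A, KIF4B, KIF11, KIF14, KIF18A and KIF18B) and in 0 of 12 transport kinesin promoters. Over all 27305 promoters the share was 0.674%, and over those of protein-coding genes 0.533%. The distance was 24 bases in KIF4A and in KIF4B, 25 in KIF11, 23 in KIF14, 35 in KIF18A and 34 in KIF18B. Among CENP genes it was met in CENPC (39 bases) and CENPF (28 bases). KIF4A and KIF4B share transcript sequence, so they do not count as separate instances.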
